A study of Mus musculus with 36 samples.

Results

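Cells labelled aNSC were compared with cells labelled pNSC, 2 populations sorted from the adult mouse brain that are called activated and primed neural stem cells here. The labels give the populations by these abbreviations only. They call the libraries biological replicates without saying whether they came from separate animals. The p-values and SEs rest on the spread among libraries within 8 freshly sorted populations (28 libraries), these 2 included, and that spread may be technical. The comparison holds 8 of the 36 libraries of the series, 4 aNSC and 4 pNSC. Both populations came from the subependymal zone (SEZ) of C57BL/6 mice aged 8 weeks and were sorted by flow cytometry from homogenised tissue. They share strain, age and tissue, and the labels name no transgene, Cre driver or treatment for them. The sources used here do not give the antigens and gates, so a difference in a surface antigen may be part of the sort. Genes with a deposited log2 value of 0 or more in 3 or more libraries of aNSC or of pNSC entered, which kept 16165 of the 19909 genes in the table. Differences are aNSC minus pNSC throughout.

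The SEZ lines the lateral ventricles and holds astrocyte-like stem cells that make new neurons for the olfactory bulb throughout adult life. Most of these cells rest outside the cell cycle, and primed cells are thought of as resting cells close to re-entering it. Resting stem cells carry many astrocyte genes and rely on lysosomes, lipid oxidation, BMP and Notch signals and contact with the niche, and activated ones carry the EGF receptor, replicate DNA and make ribosomes.

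Values are on a log2 scale that resembles depth-scaled counts, with the same distribution imposed on every library, so a difference of 1 is a 2-fold difference relative to the other genes. In bulk libraries, fewer cells of a type and less RNA per cell cannot be told apart. The 4 aNSC libraries resembled each other more than the pNSC libraries did: Pearson correlations across genes ran from 0.963 to 0.977 within aNSC and from 0.879 to 0.950 within pNSC. pNSC replicate 1 stood apart, with correlations of 0.879 to 0.889 to the other 3 pNSC libraries. The median SD of a gene was 0.413 in pNSC and 0.192 in aNSC, whereas the fit used 1 shared spread per gene for all populations. Total reads are not given, and 1275 to 2319 genes in pNSC and 780 to 1183 genes in aNSC lay at the library's lowest value, its floor.

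Of the 16165 genes tested, 8443 (52.2%) passed an adjusted p of 0.05 in limma, 4996 higher in aNSC (30.9% of the genes) and 3447 lower (21.3%). These percentages are the background against which every count below is read. In 49.5% of genes the 4 libraries of one group did not overlap the 4 of the other, and in 6.44% the 95% interval of the difference lay between -0.5 and 0.5, here called near zero. The median difference over all genes was 0.24. With libraries shifted so that the bulk of well-measured genes agreed, an alternative added after seeing the data, that median was 0.03 and the share of calls in the higher direction went from 59.2% to 46.4%. A gene that entered through one group alone had to differ, which applied to 1009 genes through aNSC and 890 through pNSC.

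Large differences were mostly losses from aNSC. Past a 4-fold difference there were 612 genes higher and 1253 lower, and past a 16-fold difference 35 and 328. The zinc transporter gene Slc39a12 (chr2:14388316-14494977) stood at log2 8.05, 8.67, 8.91 and 9.06 in pNSC and at -1.23, 0.34, 0.88 and 1.15 in aNSC. Cxcl14, a chemokine gene, ran from 7.60 to 8.77 in pNSC and from 0.29 to 1.02 in aNSC. The aNSC libraries of both genes lay far below every pNSC library, with differences of -8.39 ± 0.91 (SE, n = 4 and 4, adjusted p = 3.35e-08) and -7.62 ± 0.59 (adjusted p = 9.27e-11). Aqp4, the water channel of astrocyte endfeet, Etnppl, an enzyme of phosphoethanolamine breakdown, Pla2g7, a secreted phospholipase, and the adenosine receptor gene Adora2b fell by 7.30, 7.05, 7.03 and 6.92 on the log2 scale. Over the alternatives the estimates ran from -7.6 to -5.42 for Etnppl and from -7.46 to -5.51 for Adora2b. Both genes may have entered the test through pNSC alone, in which case they had to differ.

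Among genes with every library above its floor, the increases were smaller than the losses. Gpd1, the cytosolic enzyme that makes glycerol 3-phosphate from a glycolytic intermediate, ran from 3.68 to 4.12 in pNSC and from 6.94 to 7.59 in aNSC. Both groups were tight for Gpd1, and it rose by 3.21 ± 0.17 (9.25-fold, adjusted p = 1.29e-13). The bHLH transcription factor gene Helt rose by 2.96 ± 0.61 (adjusted p = 0.000234).

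**Figure D1:**
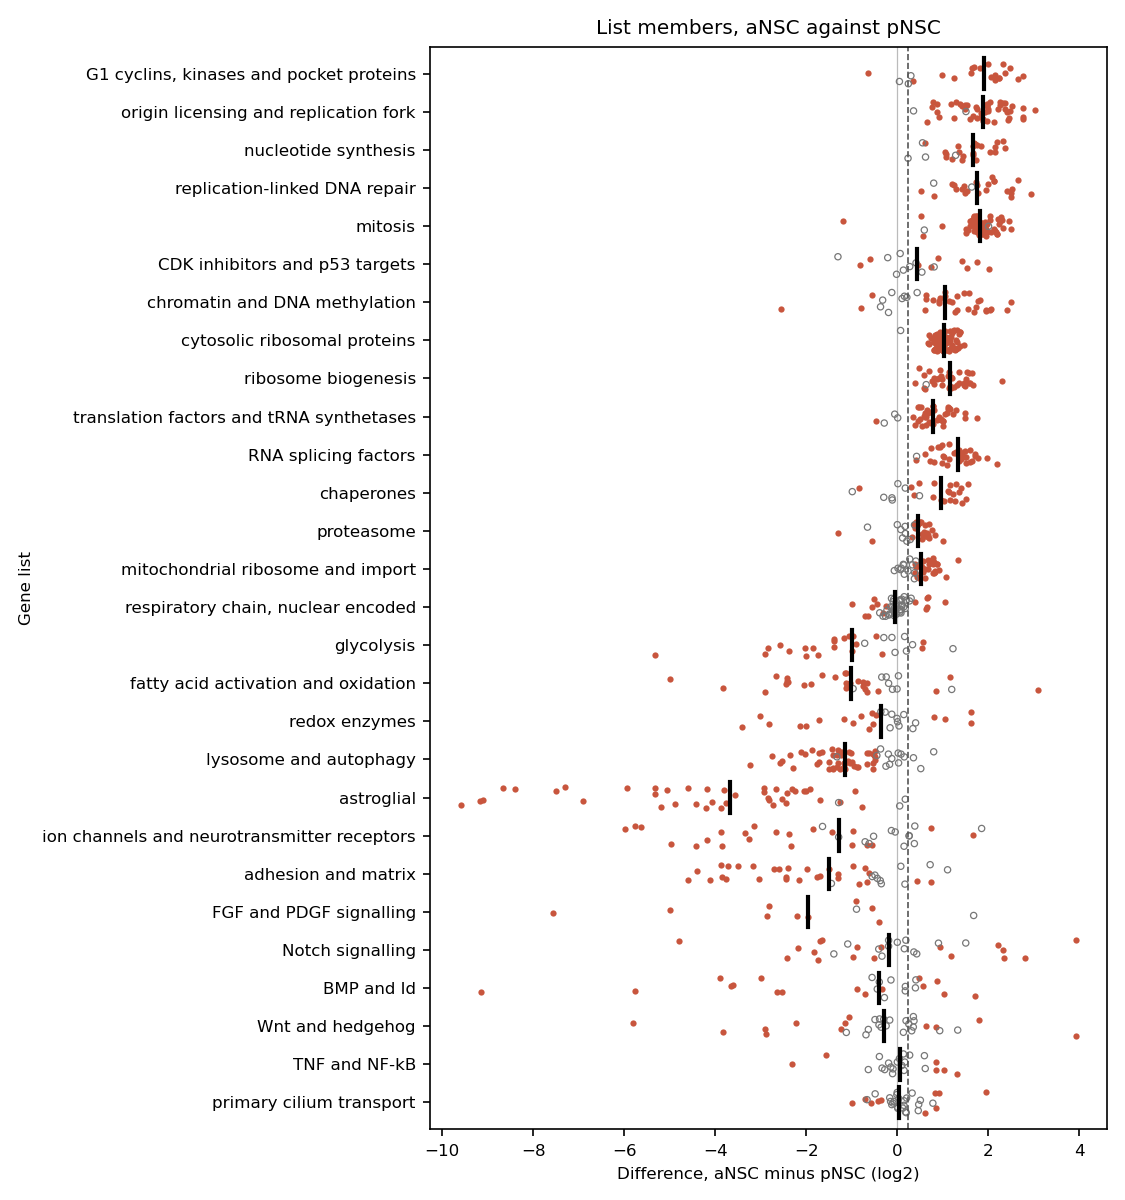
Difference between aNSC and pNSC (log2, x axis) of each tested member of 28 gene lists (rows). Filled points passed the limma test at an adjusted p of 0.05, open points did not, black bars mark each list's median and the dashed line marks the median of all genes, 0.24; cell cycle, ribosome and splicing lists lie to the right, astroglial, channel, matrix and lysosome lists to the left, and the nuclear-encoded respiratory chain around 0.

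Genes of the G1 phase, in which a cell commits to replicating its DNA, were higher in aNSC. Of 22 tested, 18 rose, 1 fell and 3 did not pass, with a median difference of 1.90. All 5 cyclins and all 4 kinases and phosphatases of the list rose. Ccnd2, a D-type cyclin that drives Cdk4 and Cdk6, stood at 11.37, 10.11, 10.11 and 9.34 in pNSC and at 12.12, 12.12, 12.55 and 12.12 in aNSC. Within pNSC replicate 1 was highest and replicate 4 lowest, and none reached an aNSC library; equal values arise because all libraries share 1 distribution. Its difference was 2.00 ± 0.25 (3.99-fold, adjusted p = 3e-07). Cdk4 rose by 1.68 ± 0.13, Cdk2 by 2.14 ± 0.26 and the E-type cyclin gene Ccne2 by 2.24 ± 0.26. Among the factors that these kinases control, the activator gene E2f3 rose by 2.23 ± 0.29, whereas Rbl2, the pocket protein of the DREAM complex that represses cell cycle genes in resting cells, fell by 0.64 ± 0.19 (adjusted p = 0.00628). The repressor E2f5 was near zero (0.05 ± 0.18).

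Of 6 CDK inhibitors 3 rose, none fell and 3 did not pass. Cdkn1b, whose product p27 holds cells in G1, stood at 5.68, 5.38, 5.79 and 5.31 in pNSC and at 5.51, 5.58, 5.64 and 5.69 in aNSC. The groups overlapped, and the difference was 0.06 ± 0.25 (adjusted p = 0.847). Cdkn1c, which encodes p57, ran from 1.58 to 2.90 in pNSC and from 3.73 to 4.72 in aNSC, a rise of 2.02 ± 0.54 (adjusted p = 0.00289). Cdkn2c rose by 1.75 ± 0.28. Of the 18 inhibitors and p53 targets tested, 7 rose, 2 fell (4 with the libraries shifted) and 9 did not pass. Trp53 itself rose by 1.43 ± 0.19 and its inhibitor gene Mdm2 by 0.74 ± 0.16, and the stress response genes Sesn1 and Ccng1 fell by 0.82 ± 0.15 and 0.60 ± 0.15.

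The promoter window of Mcm6 is shown because many replication genes hold the E2F site core TTTNNCGC, counted on either strand. Of the 42 replication genes with a window in the RefSeq table, 19 (45.2%) held it in any window. Of all 32851 single windows of 300 bases 5.17% held it, which is an unlike measure. Counted by gene, it was 9.68% of the 10909 tested genes with a window, which are under 80% of the 16165 tested. Mcm6 encodes a subunit of the replicative helicase, and it had the smallest adjusted p of the replication genes with the core before the start site. The 150 bases before its start site lie at chr1:128359706-128359855 on the minus strand (GRCm38.p6), and capitals mark 3 cores, 2 of them overlapping on opposite strands.
Mcm6: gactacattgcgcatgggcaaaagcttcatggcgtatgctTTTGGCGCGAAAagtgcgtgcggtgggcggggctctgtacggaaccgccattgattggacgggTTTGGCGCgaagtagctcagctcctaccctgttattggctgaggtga
The cores begin 110, 106 and 47 bases before the start site. A match is a description of the letters and does not show that a factor binds.

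Genes that license origins and build the replication fork rose almost without exception. Of 51 tested, 49 rose, none fell, and Orc5 and Topbp1 did not pass, with a median difference of 1.88. Topbp1 passed in 4 of 18 alternatives, the fit of the 8 libraries and the replicate block among them, and Orc5 in 2. Here and below, the replicate block was fitted to the 8 pNSC and aNSC libraries only. All 22 polymerase, clamp and ligase genes rose. Mcm6 stood at 8.71, 7.86, 7.83 and 6.81 in pNSC and at 10.25, 10.19, 10.18 and 10.03 in aNSC. The aNSC libraries lay close together, and the pNSC libraries were spread out with replicate 4 lowest. The difference was 2.36 ± 0.22 (5.13-fold, adjusted p = 2.69e-09). Mcm10, which loads replication factors, rose by 3.03 ± 0.56, the polymerase alpha subunit gene Pola2 by 2.45 ± 0.16, the fork protection gene Clspn by 2.76 ± 0.33 and the single-strand binding protein gene Rpa2 by 1.75 ± 0.17.

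The spread of these genes within pNSC followed the library. The summed level of the replication list, on the linear scale, ran from 1870 to 4790 in pNSC and from 10100 to 11100 in aNSC. Without pNSC replicate 1 its median difference was 2.13, and without pNSC replicate 4 it was 1.60. pNSC replicate 1 also held the most neuroblast transcripts of the 4 pNSC libraries. Its summed level of activated stem cell markers, a list that itself holds cell cycle genes, was 4161, against 1332 to 2117 in the other pNSC libraries. The part of neuroblasts or of activated cells in the cell cycle levels of that library was not tested.

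Of 27 nucleotide synthesis genes, 23 rose and none fell (median 1.66), including 8 of 9 deoxynucleotide genes. Rrm2, the regulatory subunit of ribonucleotide reductase, stood at 9.16, 8.27, 8.44 and 6.80 in pNSC and at 10.64, 10.49, 10.64 and 10.33 in aNSC. Every aNSC library exceeded every pNSC library, and the difference was 2.36 ± 0.25 (adjusted p = 3e-08). The pyrimidine enzyme Umps rose by 2.15 ± 0.23 and the purine enzymes Gart and Paics by 1.45 ± 0.15 and 1.2 ± 0.12. In one-carbon metabolism, which supplies the carbon for purines and thymidylate, the steps moved apart. Shmt1, which takes a carbon from serine in the cytosol, stood at 4.78, 4.33, 4.63 and 3.58 in pNSC and at 6.92, 6.78, 6.93 and 7.06 in aNSC, a rise of 2.59 ± 0.28 (adjusted p = 2.2e-08). The mitochondrial enzymes Shmt2 and Mthfd1l rose by 1.2 ± 0.17 and 3.01 ± 0.50. In the opposite direction, Psat1, an enzyme of serine synthesis, fell by 1.24 ± 0.16, and Aldh1l1, a folate enzyme used as an astrocyte marker, fell by 4.08 ± 0.53. All 3 serine synthesis genes of the list fell and both Shmt genes rose.

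Genes of DNA repair at the fork followed the same direction, with 23 of 25 higher and none lower (median 1.76). Uhrf1, which carries DNA methylation through replication, stood at 7.46, 6.26, 6.22 and 5.49 in pNSC and at 8.98, 8.83, 8.81 and 8.90 in aNSC. The recombination helicase gene Blm rose by 2.51 ± 0.30, the uracil glycosylase gene Ung by 2.41 ± 0.33, and the checkpoint kinase genes Chek2 and Atm by 1.99 ± 0.18 and 1.29 ± 0.29. Uhrf1 rose by 2.52 ± 0.26 (adjusted p = 1.4e-08), with no overlap between the groups.

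The promoter of Cdk1 is shown for the mitosis list, in which 35 of the 50 genes with a window (70.0%) hold TTTGAA on either strand. It was found in 17.9% of all single windows and, counted by gene, in 14.2% of the tested genes with a window. This is the letter sequence of the CHR element, which the DREAM and MuvB complexes bind in cell cycle promoters. The CCAAT box was found in 70.0% of the mitosis genes with a window as well. It was in 37.4% of all single windows and in 43.1% of the tested genes with a window. The 150 bases before the Cdk1 start site lie at chr10:69352913-69353062 on the minus strand, and capitals mark 2 matches, 71 and 15 bases before the start site.
Cdk1: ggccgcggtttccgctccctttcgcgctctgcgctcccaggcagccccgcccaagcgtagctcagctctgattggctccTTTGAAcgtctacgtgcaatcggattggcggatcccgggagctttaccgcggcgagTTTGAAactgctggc

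Mitotic genes rose nearly as a block, 57 of 60, with 1 lower and a median of 1.81. Cdk1, the kinase that starts mitosis, stood at 5.96, 4.71, 5.76 and 4.48 in pNSC and at 7.52, 7.11, 7.53 and 7.27 in aNSC. Replicates 1 and 3 of pNSC were higher than replicates 2 and 4, and all 4 lay below aNSC. Its difference was 2.13 ± 0.23 (4.39-fold, adjusted p = 4.01e-08). The cyclin genes Ccnb1 and Ccna2 rose by 2.17 ± 0.18 and 2.2 ± 0.21, the spindle motor gene Kif18a by 2.46 ± 0.24, the checkpoint genes Mad2l1 and Bub1b by 1.79 ± 0.18 and 1.92 ± 0.24 and the condensin gene Smc4 by 1.60 ± 0.20. The exception was Pttg1, which encodes securin, the inhibitor of the protease that separates sister chromatids. It stood at 5.85, 6.36, 6.83 and 6.48 in pNSC and at 5.05, 5.36, 5.26 and 5.07 in aNSC. All 4 aNSC libraries lay below all 4 pNSC libraries, and Pttg1 fell by 1.19 ± 0.27 (adjusted p = 0.000631).

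**Figure D2:**
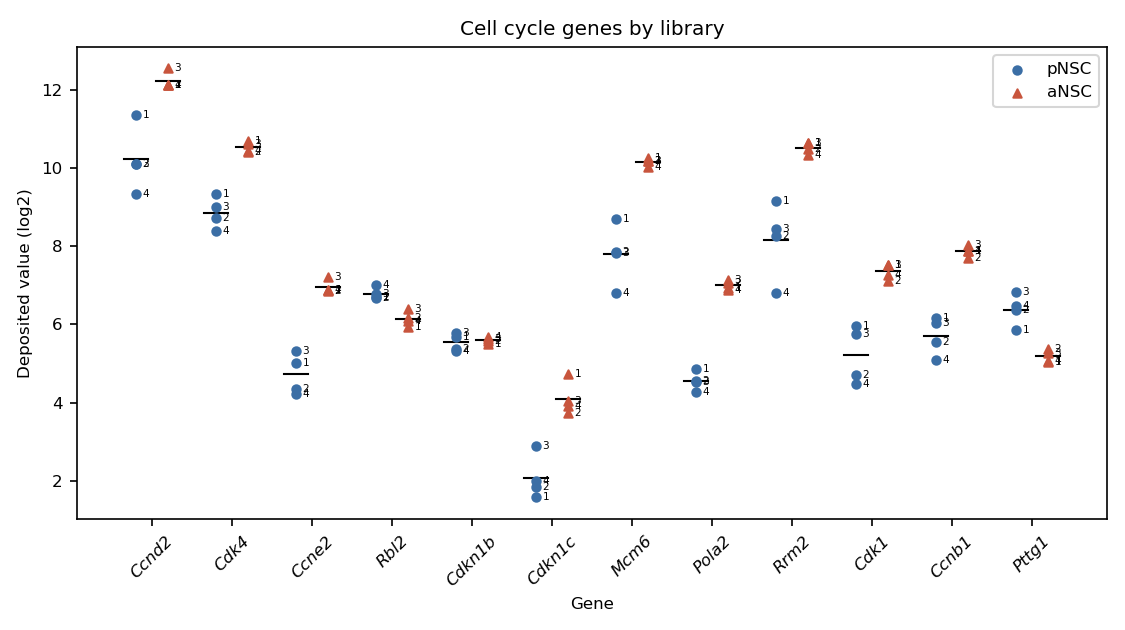
Deposited log2 values (y axis) of 12 cell cycle genes in each of the 4 pNSC (circles) and 4 aNSC (triangles) libraries, with horizontal bars at the group means. The aNSC libraries lie above the pNSC libraries for the cyclins, kinases, replication and mitosis genes, the groups overlap for Cdkn1b, and Rbl2 and Pttg1 run the opposite way; the numbers beside the points are replicate numbers.

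Of 38 chromatin genes tested, 27 rose and 3 fell (median 1.05; 7 fell with the libraries shifted), with 13 of 14 HMG proteins and histone chaperones higher. Ezh2, the methyltransferase of polycomb repressive complex 2 in dividing cells, stood at 6.57, 5.71, 6.22 and 5.15 in pNSC and at 8.09, 7.81, 7.80 and 7.79 in aNSC, a rise of 1.95 ± 0.21 (adjusted p = 2.04e-08). Its counterpart Ezh1, found in resting cells, ran from 5.16 to 5.80 in pNSC and from 4.44 to 5.04 in aNSC and fell by 0.79 ± 0.20 (adjusted p = 0.00176). Cbx7, a reader subunit of polycomb complex 1, stood at 5.29, 6.00, 6.08 and 6.31 in pNSC and at 2.56, 3.43, 3.82 and 3.68 in aNSC. It fell by 2.55 ± 0.28 (adjusted p = 3.41e-08), without overlap. The maintenance methyltransferase gene Dnmt1 rose by 1.81 ± 0.27, the histone chaperone gene Nasp by 2.05 ± 0.21, the nucleosome binding protein gene Hmgn2 by 2.03 ± 0.18 and the remodeller gene Chd7 by 1.06 ± 0.16. The remodeller Smarca2 was near zero (-0.12 ± 0.12), but was called lower with the libraries shifted (adjusted p = 0.0312).

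Most genes of the machinery that makes protein rose. Of 79 cytosolic ribosomal protein genes, 78 rose (median 1.02), and so did 37 of 38 ribosome biogenesis genes (median 1.15), 43 of 47 translation factors and tRNA synthetases (median 0.78) and 34 of 35 splicing factors (median 1.33). The ribosomal protein genes were even, with a lowest and highest difference of 0.07 and 1.46. Rpl23a was the one that did not pass, at 5.76, 5.72, 5.86 and 5.82 in pNSC and 6.09, 5.59, 5.82 and 5.94 in aNSC. Ribosomal protein genes have many near-identical pseudogenes, and the sources used here do not say how their reads were assigned. Nucleolin (Ncl), an organiser of the nucleolus, stood at 8.32, 8.08, 7.81 and 7.73 in pNSC and at 9.52, 9.68, 9.48 and 9.57 in aNSC. The groups did not overlap, and Ncl rose by 1.58 ± 0.13 (2.98-fold, adjusted p = 3.93e-10).

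Within translation the highest rise was that of Eif5a, the factor that frees stalled ribosomes, at 1.76 ± 0.14 (adjusted p = 1.43e-10). The initiation factor gene Eif2s1 rose by 1.11 ± 0.11 and the alanine and threonine tRNA synthetase genes Aars and Tars by 0.91 ± 0.09 and 1.12 ± 0.12. Qars, for glutamine, fell by 0.48 ± 0.15 (adjusted p = 0.0117), and Dars, for aspartate, was near zero (-0.06 ± 0.13). The call of Qars was lost in the fit with the replicate number as a block, and 2 genes of the list fell without aNSC replicate 4. Of the splicing factors, Hnrnpu rose by 2.19 ± 0.16, Hnrnpab by 1.98 ± 0.15 and Srsf2 by 1.60 ± 0.14. Of 6 amino acid carriers 4 rose and 1 fell. Slc1a5 for glutamine and Slc7a1 for arginine and lysine rose by 1.59 ± 0.26 and 1.90 ± 0.25, and Slc3a2, the heavy chain shared by several carriers, fell by 0.65 ± 0.14. Of 12 genes of the mTOR complexes and their inhibitors, 2 rose and 1 fell.

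All 8 subunits of the cytosolic chaperonin, which folds actin and tubulin, rose by 1.03 to 1.4. Cct5 stood at 8.36, 8.30, 8.18 and 7.83 in pNSC and at 9.43, 9.41, 9.44 and 9.44 in aNSC. The aNSC libraries were nearly equal, and Cct5 rose by 1.26 ± 0.11 (adjusted p = 9.14e-10). The chaperone genes Hsp90ab1 and Hspa4 rose by 1.54 ± 0.14 and 1.5 ± 0.12. Of the chaperone list 1 gene fell (3 without pNSC replicate 1 or with the replicate block): Xbp1, a transcription factor of the endoplasmic reticulum stress response, fell by 0.85 ± 0.16, and Calr was near zero (-0.11 ± 0.16). Of 36 proteasome genes 25 rose and 2 fell, with a median of 0.45, and with the libraries shifted on the bulk of genes 15 were still called higher. The 2 that fell, Psmb10 (1.31 ± 0.30) and Psme1 (0.55 ± 0.16), belong to the immunoproteasome and its activator, of whose 5 genes none rose.

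Energy metabolism differed by pathway. Of 29 glycolysis genes 19 fell and 2 rose (median -0.99), and without pNSC replicate 3 there were 4 that rose. Aldoc, the aldolase of astrocytes, stood at 11.67, 11.87, 11.87 and 12.12 in pNSC and at 5.38, 7.06, 6.65 and 7.17 in aNSC. Eno1, the enolase, ran from 8.85 to 9.40 in pNSC and from 7.05 to 7.24 in aNSC. Neither gene overlapped between groups, and they fell by 5.32 ± 0.42 (adjusted p = 1.34e-10) and 2.02 ± 0.11 (adjusted p = 3.05e-13). The phosphofructokinase gene Pfkp fell by 2.83 ± 0.18, the glucose transporter gene Slc2a1 by 2.01 ± 0.20, the brake on pyruvate oxidation Pdk2 by 2.57 ± 0.15 and the lactate dehydrogenase subunit gene Ldhb by 0.92 ± 0.13. The 2 that rose were Pkm and Ldha. Pkm, a pyruvate kinase gene, rose by 0.57 ± 0.09 (adjusted p = 1.92e-05). Ldha, for the other lactate dehydrogenase subunit, rose by 0.55 ± 0.14 (adjusted p = 0.00259). The call of Ldha was lost with the libraries shifted on the bulk of genes. Pgk1 was near zero (0.20 ± 0.11), but was called higher without pNSC replicate 3 (adjusted p = 0.0405).

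Fatty acid oxidation genes fell in 25 of 36 cases and rose in 3 (median -1.01). Acsl3 and Acsl6, which activate long-chain fatty acids, fell by 2.41 ± 0.10 (adjusted p = 2.25e-15) and 3.83 ± 0.20 (adjusted p = 5.62e-14). Acsl3 stood at 10.31, 10.43, 10.47 and 10.58 in pNSC and at 7.76, 8.26, 8.00 and 8.12 in aNSC. The related Acsl5 ran the opposite way, at -3.74, 1.97, 2.51 and 1.93 in pNSC and 3.74, 3.55, 3.99 and 3.77 in aNSC. It was at the floor in pNSC replicate 1, and its rise was 3.10 ± 0.95 (adjusted p = 0.00851), with estimates from 1.63 to 3.71 over the alternatives. None of the 20 beta oxidation genes rose and 15 fell, among them Acadl by 2.40 ± 0.16 and Acadvl by 1.90 ± 0.14. The nuclear receptor gene Ppara, which drives this programme, fell by 2.91 ± 0.65. Fabp7, the lipid chaperone of radial glia, rose by 1.15 ± 0.25, and its relative Fabp5 was near zero (-0.01 ± 0.15). In lipid synthesis 14 of 33 genes fell and 5 rose, against 21.3% and 30.9% of all genes tested. The number that rose was 9 with the replicate block and 3 without pNSC replicate 4 or aNSC replicate 1 or 2. Srebf1, the master regulator of fatty acid synthesis, was lower by 1.78 ± 0.19. Acly, which makes cytosolic acetyl-CoA, was higher by 0.77 ± 0.20.

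Of 49 nuclear-encoded subunit genes 6 rose, 8 fell and 35 did not pass, and 29 were near zero (59.2% of the list, against 6.44% of all genes). The 6.44% is not matched for level, and near zero needs a narrow interval. The median SE was 0.266 over all genes and 0.149 at log2 8 and over, so abundant genes qualify more easily. Sdha, of complex II, stood at 9.12, 9.08, 8.92 and 9.09 in pNSC and at 8.90, 9.23, 9.23 and 9.10 in aNSC. The groups overlapped with a difference of 0.06 ± 0.12. Of the subunits called higher, Atp5b and Atp5a1, which form the catalytic head of ATP synthase, rose by 1.05 ± 0.09 (adjusted p = 8.35e-10) and 0.67 ± 0.09. Of those called lower, Ndufb10 of complex I fell by 1.01 ± 0.18 and Uqcrc2 of complex III by 0.57 ± 0.11. The list's median was -0.06 and, with the libraries shifted on the bulk of genes, -0.26, with 18 genes then lower. Without pNSC replicate 3, aNSC replicate 2 or aNSC replicate 4, 5 genes were called lower. Mitochondrially encoded transcripts gave 1 call higher and 4 lower of 8. The lower calls were 2 without pNSC replicate 2 or 3, and the higher call was lost without pNSC replicate 2 or 4 or aNSC replicate 1 or 4. With only the 8 pNSC and aNSC libraries in the fit, with or without the replicate block, 2 were higher. Genes for the mitochondrial ribosome and protein import rose in 29 of 42 cases (median 0.52), led by the chaperonin Hspd1 (1.34 ± 0.10). With the libraries shifted, 16 of those 42 were called higher.

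Redox enzymes fell in 13 of 27 cases and rose in 4. The glutathione transferase gene Gstm1 stood at 10.10, 10.31, 10.43 and 10.41 in pNSC and at 6.36, 7.01, 7.02 and 7.19 in aNSC, a fall of 3.42 ± 0.20 (adjusted p = 7.88e-13). Prdx6 and Nqo1 fell by 1.73 ± 0.16 and 2.13 ± 0.26. The reductases that recycle thioredoxin and glutathione rose: Txnrd1 by 1.61 ± 0.15 (adjusted p = 2.57e-09) and Gsr by 1.61 ± 0.15 (adjusted p = 3.23e-09). Prdx1 was near zero (0.04 ± 0.14).

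**Figure D3:**
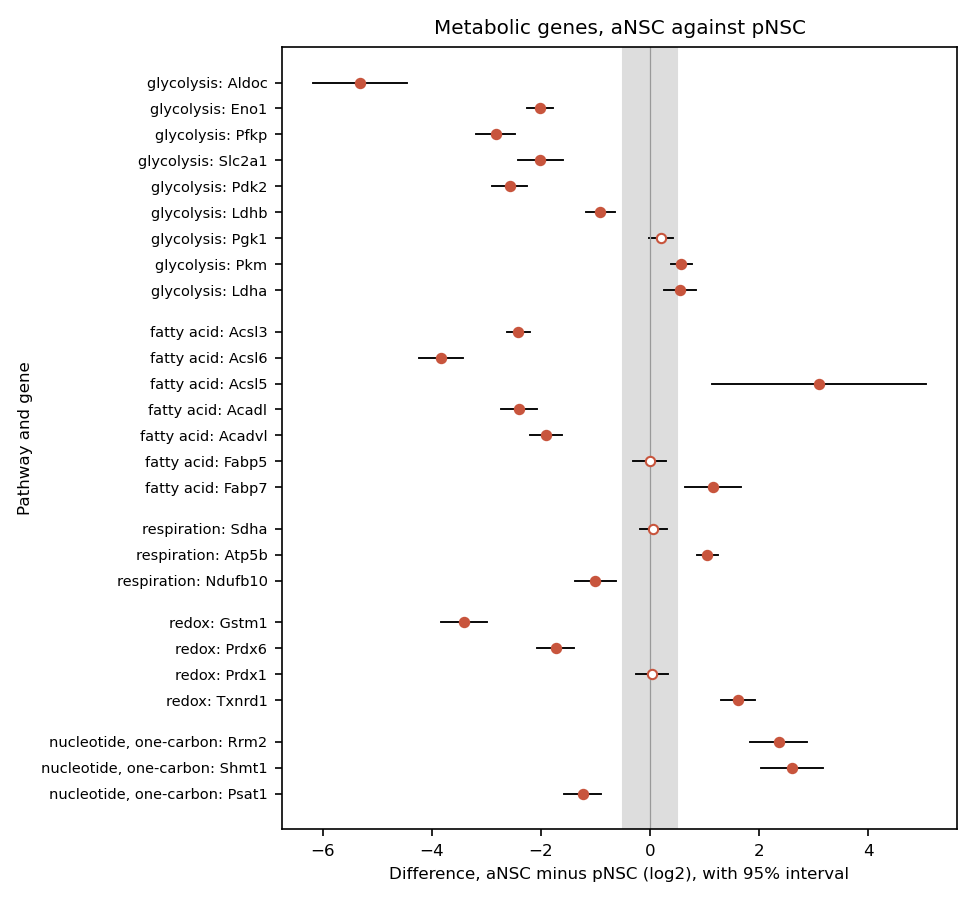
Difference between aNSC and pNSC (log2, x axis) with 95% intervals for 26 enzymes and carriers, grouped by pathway (y axis). Filled points passed the limma test, open points did not, and the shaded band runs from -0.5 to 0.5; glycolysis and fatty acid genes lie mostly to the left, Rrm2 and Shmt1 to the right, and Sdha, Pgk1, Fabp5 and Prdx1 within the band.

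The promoter of Ctsd, the lysosomal protease cathepsin D, is shown because it holds TCACGTGA, the palindrome that the lysosome regulators TFEB and TFE3 bind in CLEAR elements. Of 65 lysosome and autophagy genes 51 had a window, under 80%, so a comparison of shares is void. Of these 51 genes 7 held the palindrome in a window, and 0.974% of all single windows hold it. The stretch lies at chr7:142387848-142387997 on the minus strand, runs from 170 to 21 bases before the start site, and holds the match in capitals 99 bases before it.
Ctsd: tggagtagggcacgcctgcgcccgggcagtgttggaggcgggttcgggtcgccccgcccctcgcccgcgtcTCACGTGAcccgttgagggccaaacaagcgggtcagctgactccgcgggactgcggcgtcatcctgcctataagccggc

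Lysosomal transcripts fell across the organelle. Of the 65 genes 51 fell and none rose (median -1.15): 26 of 29 hydrolases, 8 of 9 membrane proteins, 9 of 13 subunits of the proton pump and 8 of 14 autophagy genes and regulators. With only the 8 pNSC and aNSC libraries in the fit, with the replicate block or with library weights, 2 rose. Without pNSC replicate 1, 1 rose. Ctsd stood at 9.64, 9.70, 9.80 and 10.03 in pNSC and at 7.77, 8.03, 8.04 and 8.28 in aNSC, a fall of 1.76 ± 0.12 (adjusted p = 1.17e-11). The protease gene Ctsf and the glycogen-degrading enzyme gene Gaa fell by 3.24 ± 0.14 and 2.53 ± 0.14, the membrane protein gene Lamp1 by 1.5 ± 0.10, the pump gene Atp6ap1 by 1.2 ± 0.09 and the autophagy receptor gene Sqstm1 by 1.43 ± 0.12. Within the pump the subunits were not alike, and Atp6v0e2 was near zero (0.08 ± 0.10). Microglia are rich in lysosomes, and their markers were lower in aNSC in the same libraries: 8 of 20 fell and none rose (median -1.77), 18 fell with only the 8 pNSC and aNSC libraries in the fit, and their summed linear level was 647 to 1220 in pNSC and 299 to 477 in aNSC. With values below 0 set to 0, 16 fell. The defining marker P2ry12 fell by 1.92 ± 0.36, and Cx3cr1 (-0.08 ± 0.14) was the single marker near zero. The part of microglial RNA in the lysosomal difference was not tested.

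Astroglial genes fell in 41 of 44 cases and none rose (median -3.67). The losses covered every role in the list: 9 of 9 cytoskeletal and metabolic genes, 13 of 14 transporters and channels, 3 of 3 gap junction genes, 7 of 7 receptors and 9 of 11 secreted factors. Gja1, which encodes the main astrocyte gap junction protein connexin 43, stood at 11.18, 11.37, 11.31 and 11.52 in pNSC and at 6.51, 7.44, 7.20 and 7.41 in aNSC. S1pr1, a lipid receptor linked to stem cell quiescence, ran from 10.85 to 11.18 in pNSC and from 6.39 to 7.66 in aNSC. Both stood more than 3 log2 units apart with no overlap, and Gja1 fell by 4.21 ± 0.35 (adjusted p = 3.28e-10) and S1pr1 by 3.80 ± 0.29 (adjusted p = 8.08e-11). The bicarbonate carrier gene Slc4a4 and the serine carrier gene Slc7a10 fell by 5.32 ± 0.29 and 5.19 ± 0.30. aNSC replicate 1 was the lowest of the aNSC libraries for Gja1, S1pr1, Aldoc, Gstm1 and Slc4a4.

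Of 35 ion channels, pumps and transmitter receptors 20 fell and 2 rose (median -1.29), and without pNSC replicate 3, aNSC replicate 1 or aNSC replicate 2 none rose. The GABA receptor gene Gabrb1 stood at 7.64, 7.87, 8.12 and 8.46 in pNSC and at 1.61, 2.28, 1.55 and 2.72 in aNSC and fell by 5.98 ± 0.47 (adjusted p = 1.36e-10). The GABA-B receptor gene Gabbr1 fell by 2.38 ± 0.23, the potassium channel gene Kcnk1 by 4.97 ± 0.29 and the sodium pump gene Atp1b1 by 1.43 ± 0.13. Of 39 adhesion and matrix genes 27 fell and 2 rose (median -1.49; 1 rose without aNSC replicate 4). Cadm1, a synaptic type adhesion molecule, had the smallest p of the lists, at 8.78, 9.07, 9.22 and 9.19 in pNSC and 6.67, 6.68, 6.58 and 6.74 in aNSC. Its fall was 2.40 ± 0.09 (adjusted p = 3.78e-16). Cadm2 fell by 3.88 ± 0.17, the protease inhibitor genes Timp3 and Timp2 by 4.59 ± 0.26 and 3.04 ± 0.17, and Vcam1, which anchors stem cells in the niche, by 2.60 ± 0.34. Itgb1, the integrin beta 1 chain, rose by 0.73 ± 0.16.

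Of 34 genes of EGF receptor and ERK signalling 12 rose, 5 fell and 17 did not pass. Among all genes tested 30.9% rose and 21.3% fell. In the list 3 of 5 ligands were lower and 2 of 11 inhibitors higher. Without pNSC replicate 4 or aNSC replicate 3, 3 genes of the list fell. The receptor gene Egfr (chr11:16752203-16918158) rose by 2.19 ± 0.20 and, as a common sorting antigen, may reflect the gates. The ligand gene Hbegf stood at 3.82, 4.67, 5.08 and 5.21 in pNSC and at 2.02, 2.40, 1.80 and 2.42 in aNSC, and Tgfa at 3.61, 4.11, 3.82 and 4.56 and at 2.60, 2.67, 0.52 and 2.23. No aNSC library reached a pNSC library, and the genes fell by 2.53 ± 0.27 (adjusted p = 2.48e-08) and 2.02 ± 0.42 (adjusted p = 0.00025). Btc, another ligand, was called higher (adjusted p = 0.0499) with overlapping groups and 2 pNSC libraries at the floor, and that call was lost in 14 of 17 alternatives. The ERK feedback genes Spry4 and Spry2 rose by 2.22 ± 0.49 and 0.69 ± 0.23. The call of Spry2 was lost with the libraries shifted on the bulk of genes. Of 11 FGF and PDGF genes none rose (1 without pNSC replicate 4) and 9 fell (median -1.97). The FGF receptor gene Fgfr3 stood at 8.63, 9.03, 9.18 and 9.48 in pNSC and at 5.71, 6.61, 6.03 and 6.70 in aNSC, a fall of 2.82 ± 0.28, and Fgfrl1 and Pdgfc fell by 1.97 ± 0.26 and 2.85 ± 0.73. Pdgfrb fell by 4.99 ± 0.88. It is also a pericyte marker, and the summed level of the 7 pericyte and smooth muscle markers found was 23.8 to 150 in pNSC and 3.70 to 9.69 in aNSC. The part of mural cell RNA in its difference was not tested.

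The Notch pathway, through which neighbouring cells keep each other undifferentiated, had genes moving both ways. Of 31 genes 7 rose and 11 fell, where 30.9% of all genes tested rose and 21.3% fell. Of 7 ligands 3 rose and 1 fell, and of 4 receptors none rose and 2 fell. The ligand gene Dll3 stood at 5.53, 4.56, 5.27 and 3.79 in pNSC and at 7.87, 7.49, 7.53 and 7.51 in aNSC, and Hes6, an antagonist of the Hes repressors, at 8.19, 7.68, 7.89 and 7.33 and at 10.19, 10, 10.13 and 10.07. These rose by 2.81 ± 0.53 (adjusted p = 9.76e-05) and 2.33 ± 0.15 (adjusted p = 2.31e-12). The receptor gene Notch2 stood at 5.74, 5.49, 5.25 and 5.94 in pNSC and at 3.38, 3.49, 3.18 and 3.60 in aNSC and fell by 2.19 ± 0.34. The Notch target genes Hes5, Hey1 and Nrarp fell by 1.64 ± 0.31, 1.70 ± 0.30 and 0.97 ± 0.18. The atypical ligand gene Dlk1 fell by 4.79 ± 0.81, with estimates from -5.17 to -3.31 over the alternatives. Dlk1 may have entered the test through pNSC alone, in which case it had to differ. Hes1, named here after its values were seen, did not pass (-1.39 ± 0.70, adjusted p = 0.098), but passed with only the 8 libraries in the fit (adjusted p from 0.000538 to 0.204 over the alternatives).

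BMP signals, which hold stem cells at rest through the Id proteins, had 11 of 25 genes lower and 5 higher. Of 5 BMP antagonists tested 1 fell (Nog) and 1 rose (Nbl1). The estimates for Nog ran from -3.87 to -1.71 over the alternatives, so the size of its fall depended on the setting. Nog may have entered the test through pNSC alone, in which case it had to differ, and its call is then weak evidence for the antagonists. Id4 stood at 9.90, 10.23, 10.18 and 10.26 in pNSC and at 7.05, 7.68, 7.89 and 7.78 in aNSC, a fall of 2.54 ± 0.13 (adjusted p = 4.15e-14). Id2 and Id3 fell by 3.00 ± 0.21 and 3.61 ± 0.57, and Id1, named after its values were seen, did not pass (-0.56 ± 0.50, adjusted p = 0.365) but passed with only the 8 libraries in the fit (adjusted p = 0.0428; from that to 0.549 over the alternatives). The ligand gene Bmp6 fell by 5.76 ± 0.55 and the receptor gene Bmpr1b fell by 2.65 ± 0.45. Among the 5 ligands tested 4 fell and none rose, and among the 6 receptors 2 fell and 2 rose. The antagonist gene Nog fell by 3.66 ± 0.70, which for the reason given does not show a fall of the antagonists. The antagonist gene Nbl1 rose by 1.71 ± 0.23 (from 6.11 to 6.45 in pNSC, from 7.97 to 8.12 in aNSC). In the Wnt pathway none of 14 ligands, receptors and antagonists rose and 5 fell (for the Wnt and hedgehog genes together 8 of 31, and 13 with the libraries shifted), with Fzd2 and Dkk3 lower by 2.88 ± 0.17 and 2.91 ± 0.19. The repressive transcription factor gene Tcf7l1 fell by 3.83 ± 0.55 while Ctnnb1, which encodes beta-catenin, rose by 1.80 ± 0.23 (adjusted p = 4.59e-07). Of 10 hedgehog genes 2 rose and 1 fell (Gli3, by 1.23 ± 0.31).

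For TNF and NF-kB signalling, which sensitises cells to inflammation, 4 of 23 genes rose and 2 fell (4 with the libraries shifted), against 52.2% of all genes called. None of the 9 NF-kB subunits and inhibitors passed. Of the receptors, Tnfrsf1a stood at 5.00, 5.53, 5.66 and 5.65 in pNSC and at 3.65, 3.77, 4.06 and 4.06 in aNSC and fell by 1.58 ± 0.21 (adjusted p = 8.02e-07). The death receptor gene Fas fell by 2.31 ± 0.78. Tnfrsf1b stood at 1.65, 1.97, -4.31 and 1.46 in pNSC and at -1.48, -0.52, -1.0 and 1.22 in aNSC. One pNSC library was at the floor, the groups overlapped, and the difference of -0.64 ± 1.16 (adjusted p = 0.665) was not detectable at these levels. Tnfrsf1b passed with values below 0 set to 0 (adjusted p = 0.0429), and its estimates ran from -2.14 to -0.04 over the alternatives. By these values it entered the test through pNSC alone. The adaptor gene Tradd rose by 1.32 ± 0.29 and the kinase gene Chuk by 0.85 ± 0.20.

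**Figure D4:**
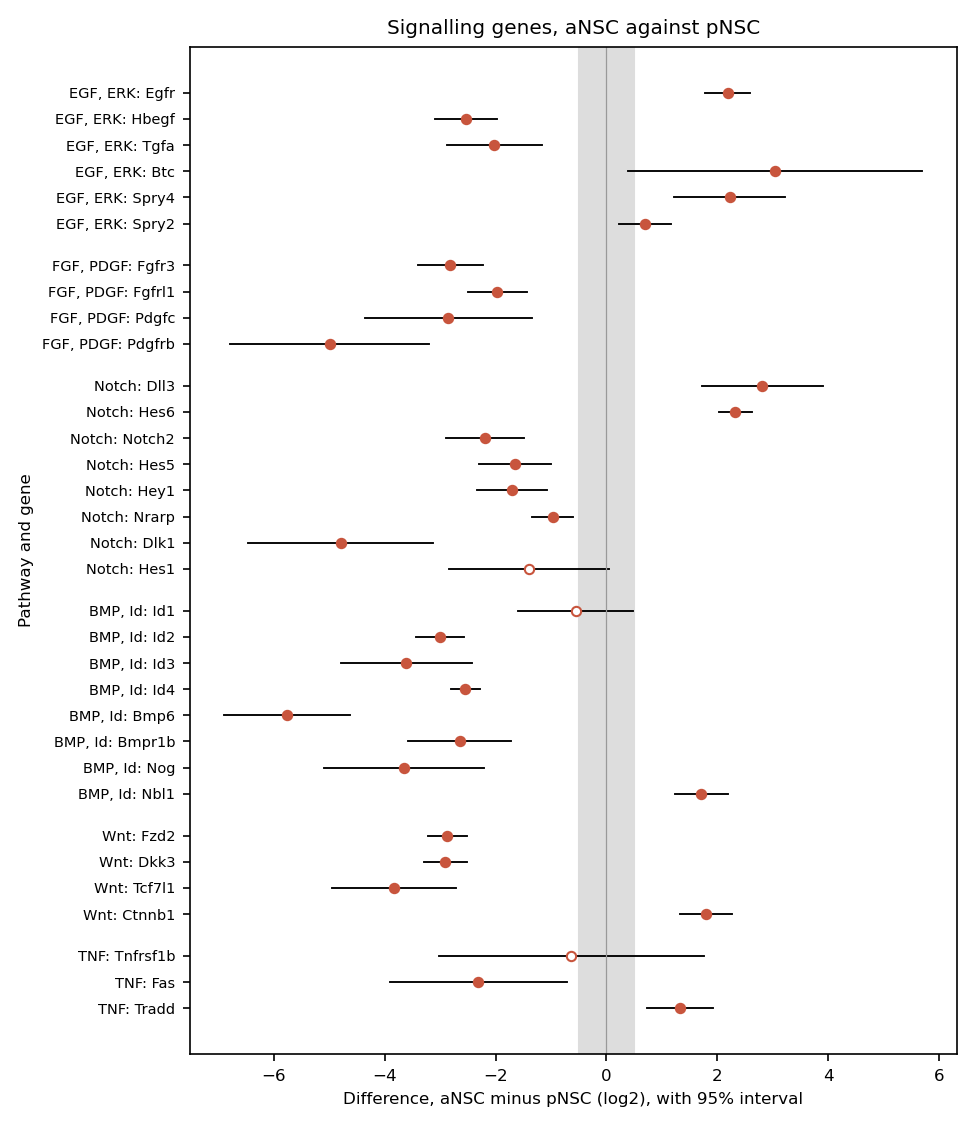
Difference between aNSC and pNSC (log2, x axis) with 95% intervals for 33 signalling genes, grouped by pathway (y axis). Filled points passed the limma test and open points did not; FGF and PDGF genes lie to the left, and Notch ligand Dll3 and Hes6 to the right of the Notch receptors and targets.

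Of 35 transcription factor genes of the stem cell state 6 rose, 14 fell and 15 did not pass (median -0.27). Among all genes tested 30.9% rose and 21.3% fell. With the replicate number as a block 10 rose. Sox9 stood at 9.76, 9.86, 9.71 and 9.88 in pNSC and at 7.96, 8.22, 7.95 and 8.23 in aNSC, a fall of 1.71 ± 0.12 (adjusted p = 7.86e-12). Sox2, of the same family, ran from 8.43 to 8.56 in pNSC and from 7.98 to 8.27 in aNSC. The 2 groups did not touch, but the fall of 0.35 ± 0.12 (adjusted p = 0.0186) lost its call without pNSC replicate 2 or without aNSC replicate 1. Foxo1, a factor of stem cell maintenance, fell by 2.19 ± 0.19, the glucocorticoid target gene Klf9 by 2.03 ± 0.16 and the clock gene Nr1d1 by 2.36 ± 0.20. In the NFI family Nfix rose by 1.01 ± 0.14 and Nfia was near zero (0.08 ± 0.10). Sox4, a factor of committed progenitors, rose by 1.38 ± 0.20.

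Of 28 lineage factors tested 16 rose and 5 fell, and of the 11 ganglionic eminence factors among them 4 rose and 4 fell. Olig2, a factor of activated progenitors and of the oligodendrocyte lineage, stood at 2.16, 2.15, 2.42 and 3.61 in pNSC and at 5.92, 5.81, 6.30 and 6.37 in aNSC, a rise of 3.51 ± 0.44 (adjusted p = 3.09e-07). Of 6 markers of oligodendrocyte precursors tested (median 0.77) only Olig1 passed (1.22 ± 0.50, adjusted p = 0.0454), a call lost in 10 of 18 alternatives. Their median was 1.61 without pNSC replicate 4, with 2 higher, and near 0 without pNSC replicate 3. Gsx1 and Dlx2, of the ganglionic eminence programme, rose by 3.39 ± 0.39 and 1.39 ± 0.23, and Tcf12, the bHLH partner gene, by 1.51 ± 0.18. Sp9 stood at 7.58, 5.58, 6.14 and 5.77 in pNSC and at 5.07, 4.44, 4.65 and 4.22 in aNSC and fell by 1.67 ± 0.33. Sp8 fell by 3.13 ± 0.52, but entered the test through pNSC alone.

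Neuroblast markers went both ways. Of 20 tested 11 fell and 4 rose, the latter being Dlx1, Dlx2, Sox11 and Stmn1. Stmn2, a microtubule gene of young neurons, stood at 6.85, 4.96, 5.74 and 5.12 in pNSC and at 2.11, 2.88, 2.35 and 2.37 in aNSC and fell by 3.24 ± 0.39 (adjusted p = 1.54e-07). The non-coding Dlx6os1 fell by 2.85 ± 0.34. pNSC replicate 1 held the highest level of Stmn2, Dlx2 and Sp9 in its group, and the summed linear level of the neuroblast markers was 4410 there and 1600 to 2240 in the other 3. Without that library 9 markers fell and 7 rose.

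Several other niche cells had lower summed marker levels in aNSC. The summed linear level of oligodendrocyte markers was 401 to 597 in pNSC and 212 to 264 in aNSC, with 2 of 7 lower and 1 higher. For ependyma it was 68.8 to 138 and 42.2 to 58.2, with 6 of 9 lower and 1 higher, and for mature neurons 222 to 366 and 46.3 to 74.9, although of 11 tested members 2 rose, 1 fell and 8 did not pass (median -0.07). Of the oligodendrocyte markers none rose without pNSC replicate 1 or 3 or aNSC replicate 2 or 3, 1 fell without pNSC replicate 2 or aNSC replicate 1, 3 or 4, and 4 fell with the replicate block. Of the mature neuron markers 1 rose without pNSC replicate 1 or 3 or aNSC replicate 1, 2 or 4, and 3 fell without pNSC replicate 3 or aNSC replicate 2. The striatal neuron gene Ppp1r1b, which made up most of the last sum in pNSC, fell by 7.18 on the log2 scale. Only 2 of 12 endothelial markers were tested and neither passed (11.1 to 29.6 in pNSC, 8.89 to 17.9 in aNSC). Whether RNA of these cells takes part in the losses from aNSC was not tested.

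**Figure D5:**
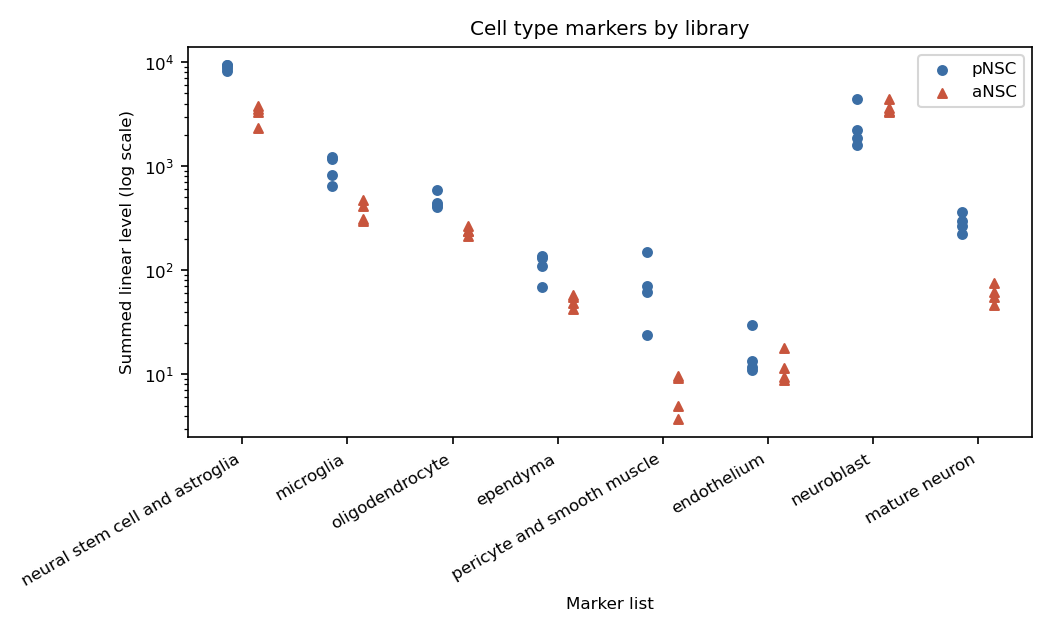
Summed linear level (y axis, log scale) of the marker genes of 8 cell types in each of the 4 pNSC (circles) and 4 aNSC (triangles) libraries. Stem cell and astroglial, microglial, oligodendrocyte, ependymal, mural and mature neuron markers are lower in every aNSC library than in every pNSC library; the endothelial and neuroblast sums overlap, and the highest pNSC neuroblast point is replicate 1.

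Of 33 genes of transport in the primary cilium, the antenna for hedgehog signals, 5 rose and 5 fell (median 0.03; with the libraries shifted, 3 and 8), and 15 of 18 intraflagellar transport and motor genes did not pass. Kif3a, a cilium motor, stood at 6.75, 6.78, 6.48 and 6.44 in pNSC and at 6.28, 6.58, 6.46 and 6.54 in aNSC (-0.15 ± 0.14). It was called lower with the libraries shifted (adjusted p = 0.0337). Of 25 interferon and antigen presentation genes 8 fell and 2 rose (1 without aNSC replicate 2). The class I gene H2-K1 stood at 6.56, 7.20, 7.29 and 7.41 in pNSC and at 3.97, 4.94, 4.51 and 4.63 in aNSC and fell by 2.60 ± 0.32 (adjusted p = 2.55e-07), its peptide loader gene Tapbp fell by 1.75 ± 0.19, and the antiviral gene Ifit2 rose by 1.46 ± 0.24. Immediate early genes, which tissue dissociation also induces, had 6 of 27 higher and 2 lower. The number lower was 6 with the replicate block, 5 without aNSC replicate 2, 4 without pNSC replicate 1 or 4, and 1 without pNSC replicate 2. Egr1 stood at 11.15, 10.88, 9.79 and 9.28 in pNSC and at 13.26, 13.26, 12.30 and 12.72 in aNSC, a rise of 2.61 ± 0.33, whereas Cyr61 and Dusp1 fell by 2.28 ± 0.37 and 0.82 ± 0.26. Replicates 1 and 2 were the higher ones for Egr1 in both groups. The call of Dusp1 was lost without pNSC replicate 2. The part of dissociation in these differences was not tested.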

How the data were processed

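RNA of 8 freshly sorted SEZ populations (28 libraries) was poly(A) selected, turned into cDNA libraries (SMARTer Ultra Low kit, adapters of the Nextera XT set) and run on a NextSeq 500 instrument, per the labels' protocols. The authors' deposited table holds log2 values, with a unit read from the values, per gene and library. The submitters' processing notes name HISAT2 and featureCounts, besides FastQC, Trimmomatic, cutadapt and limma, and the builds mm10 and GRCm38. The sources used here give no versions, annotation, filters or total reads, so depth is unknown. Blank lines (1770) were dropped, 23 symbols had turned into dates, and 19863 IDs matched GENCODE M21, which gave the gene coordinates. Cultured libraries were not analysed here.

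A linear model with a mean per population was fitted to the 28 libraries in limma 3.58.1 (R 4.3.3; trend and robust settings), after testing on simulated data, and p-values were Benjamini-Hochberg adjusted over all 16165 genes. The design foresaw counts or log values, and the branch for log values was used. Lists (50, with 1358 tested list and gene pairs) and members were chosen with earlier results of these data known. Genes named were fixed key genes, the 8 largest differences each way, for each list and role up to 2 called genes with the smallest p, up to 2 called the other way, and the most abundant gene near zero. Other genes were chosen after their values were seen. Promoter windows and motifs come from RefSeq (GRCm38.p6). Alternatives changed the libraries in the fit, replicate block, variance model, weights, centring, filter, floor and threshold, or left out 1 library. Some genes are not reported here.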

Additional observations from a re-analysis of the deposited data

Results flagged for a closer look

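Of 398 groups of 4 libraries (199 genes in 2 groups), 23 had 1 library far from the other 3; chance flags about 1 in 20 such groups. In pNSC replicate 1, Trp53 was high at log2 7.28 (others 5.91 to 6.02) and Atp6ap1 at 8.50 (8.27 to 8.28). Low in the same library were Acsl5 at -3.74 (its floor), Hes1 at 4.83, Id3 at 7.39 and Ppp1r1b at 7.27. In pNSC replicate 2, Cyr61 was high at 9.44. In pNSC replicate 3, Tnfrsf1b was low at -4.31 (its floor). In pNSC replicate 4, Atm was low at 2.71 and Smc4 at 5.97.

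In aNSC replicate 1, Ezh2 was high at 8.09, Hnrnpab at 10.93, Pgk1 at 6.71 and Dll3 at 7.87, and Pkm was low at 9.77, Slc4a4 at 2.37, Pdgfrb at -1.80, Id3 at 3.62 and Foxo1 at 5.55. In aNSC replicate 2, Atp5b was low at 11.18. In aNSC replicate 3, Ccnd2 was high at 12.55, Ccne2 at 7.21 and Hnrnpu at 11.99. Several of these libraries differed from the others by little, because the other 3 values were nearly equal.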

How the results depend on the processing

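The 8443 calls became 5427 when a mean of 4 or more was required, 4988 with a fold of over 2 and 4176 when tested against a log2 difference of 0.5. The 4996 higher calls became 3224, 2644 and 2047, and the 3447 lower calls became 2203 with the mean filter and 2129 against 0.5. Of all calls 59.2% were higher, and 46.4% were with libraries shifted on gene differences, a setting added after seeing the data, or 49.0% against 0.5. Leaving out 1 library gave 7511 to 8790 calls. With the replicate block, fitted to the 8 pNSC and aNSC libraries only, there were 8570 calls, 4961 higher and 3609 lower (57.9% higher). Those 8 libraries without the block gave 8413 calls, 4904 higher and 3509 lower. Deviations of same-numbered pNSC and aNSC libraries correlated at 0.175, 0.111, 0.081 and 0.119; all were positive and each library correlated best with its own number, a hint from the data and not the design, but 1 of the 4 was under 0.1, so the libraries were not treated as paired. In the block fit, lipid synthesis genes called higher were 9, against 5 in the main fit, and stem cell transcription factors 10, against 6. That fit also left out the other populations, so these changes are not those of the block alone. No gene named here was called in opposite directions under the alternatives run. Without total reads, counting error could not be given.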
